A study of Homo sapiens with 8 samples.

Results

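The Notch receptors NOTCH1, NOTCH2 and NOTCH3, the ligands JAG1, JAG2, DLL1, DLL3 and DLL4, and the target genes HES1 and HEY1 were followed in 2 thyroid cell lines in which the level of miR-375 had been changed. They were chosen by gene name, as every non-control probe on the array that carries one of these names, which gave 12 probes for 10 genes among 50599 probes with 36337 gene names. NOTCH1 and NOTCH2 have 2 probes each and the other 8 genes have 1.

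RNA was hybridised to 8 one-colour Agilent SurePrint G3 arrays, with 2 arrays in each of 4 groups. Nthy-ori 3-1 is an immortalised line of normal thyroid follicular cells, and its groups received a pre-miR-375 precursor, which raises the miRNA, or a control (CTL). TT is a line from a medullary thyroid carcinoma, the tumour of calcitonin-producing C cells, and its groups received an antagomiR-375, which blocks the miRNA, or a control (CTL). All cells were taken 48 h after transfection, and the labels give 5 nM for the Nthy-ori 3-1 groups and 20 nM for the TT groups, whereas the study's methods state higher concentrations. The labels do not name the control reagents. The transfection methods name a control precursor for Nthy-ori 3-1 and a control antagomiR for TT. The array methods name only the control precursor, so the control reagent of the TT arrays is not certain. Each line stands for 1 person's cells, so a difference between the lines is a difference between these cultures. The methods speak of biological replicates without saying what separates them, and the labels do not add to this, so p-values measure the spread between these arrays. Replicate numbers are those of the sample titles, from which the sample descriptions differ for the TT arrays.

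Notch receptors are cut by furin on their way to the cell surface, where they meet Jagged and Delta-like ligands on a neighbouring cell. Pulling by the ligand exposes the receptor to ADAM proteases and then to γ-secretase, which releases the intracellular domain. In the nucleus this domain binds the DNA-binding protein RBPJ and the Mastermind coactivators and turns on HES and HEY genes, whose products are transcriptional repressors. DLL3 differs from the other Delta-like ligands in that it acts mainly inside the cell on receptors of the same cell and is abundant in neuroendocrine tumours.

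The miRNA that was raised or blocked is printed because every transfection comparison rests on it. The mature sequence is that of RefSeq (GRCh38.p14, chr2:219001648-219001669, minus strand), with the seed, bases 2 to 8, in capitals.
hsa-miR-375-3p: uUUGUUCGuucggcucgcguga
Among 2370 mature miRNA names in the same table, 1 has this seed, which is miR-375-3p itself. No transcript or genome sequence was used here, so matches to the seed in the Notch genes were not searched.

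HES1 is the best known gene under direct RBPJ control, and the bases before its start are shown for that reason. In the 250 bases of RefSeq (GRCh38.p14, chr3:194135898-194136147, plus strand), TGGGAA, the core of the RBPJ motif, is in capitals.
HES1 promoter: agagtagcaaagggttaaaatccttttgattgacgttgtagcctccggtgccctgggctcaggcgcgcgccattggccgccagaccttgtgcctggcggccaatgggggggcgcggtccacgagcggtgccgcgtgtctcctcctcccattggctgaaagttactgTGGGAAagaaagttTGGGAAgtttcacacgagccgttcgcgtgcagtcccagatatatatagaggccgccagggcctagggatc
The motif was searched on both strands and occurred 2 times, beginning 84 and 70 bases before the start. At least 1 copy stood in 20.8% of the 35116 promoters of this length in the table, and 2 or more stood in 2.9%. The promoters of 7 of the 10 genes are in the table, and among NOTCH1, NOTCH2, NOTCH3, JAG1, JAG2 and DLL4 none held these letters in this window. DLL1, DLL3 and HEY1 were not matched.

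Between 32071 and 37340 of 62976 spots per array were well above background, and no spot was saturated. Arrays of the same replicate number within a line shared a slide, each slide held 1 line, and the lines were scanned on different days. Line, slide, scan day and labelled dose thus cannot be told apart. The labels give an RNA integrity number of 8 for TT_CTL and of 9 for the remaining groups. It thus differs in every comparison that uses TT_CTL, and its part in them was not tested. SEC23A, an earlier known target of miR-375, was lower with pre-miR-375 (-1.39 on the log2 scale) and higher with antagomiR-375 (0.65), in the same direction in both pairs, although neither difference passed the test (adjusted p = 0.318 and 0.512).

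The C cell identity of TT was carried by the 7 C cell markers used (CALCA, CHGA, CHGB, RET, SYP, CEACAM5 and SCG2), each higher in TT_CTL than in ORI_CTL with an adjusted p of 0.0329 or less. Of 7 follicular markers, PAX8 (mean 10.7) and FOXE1 (8.76) were well above background on both Nthy-ori 3-1 control arrays, while TSHR and NKX2-1 were not on any Nthy-ori 3-1 array. TG, the thyroid hormone precursor, was lower in ORI_CTL than in TT_CTL by 4.26 on the log2 scale, which goes against a differentiated follicular cell. Of 5 fibroblast markers, PDGFRA and LUM were called higher in TT_CTL (by 4.51 and 2.38, adjusted p = 0.00157 and 0.0171) and COL1A1 lower (by 11.51, adjusted p = 0.00178), while COL1A2 and DCN were not called and were above background on no ORI_CTL array. Within Nthy-ori 3-1 cells, 0 of the 7 C cell markers were called with pre-miR-375 (lowest adjusted p = 0.318), and 3 had an unadjusted p under 0.05, beside 14.3% of all probes. In both pairs 6 of them were higher, beside 31.7% of all probes, and RET, the one marker above background in both groups, was lower (-0.17 and -0.33). The summed normalized signal of these 7 genes was 123 and 134 in ORI_CTL, 573 and 614 with pre-miR-375, and 491396 to 548829 on the TT arrays. Different genes led the pre-miR-375 sums, as CALCA read 8.12 on replicate 1 and 4.51 on replicate 2, and SCG2 6.72 and 8.42. CALCA was the brightest of them on every TT array. These readings and sums are those of the brightest probe of each gene. By that probe CALCA, CHGA, CHGB, SYP and SCG2 were well above background on both pre-miR-375 arrays and on neither control array. CEACAM5 was above background on no Nthy-ori 3-1 array. The other CALCA probes were also above background on no Nthy-ori 3-1 array. Their means were 2.06 and 2.43 with pre-miR-375, against 18.35 and 18.14 in TT_CTL, so CALCA with pre-miR-375 rests on its brightest probe alone. What part these markers had in the Notch values of these arrays was not tested.

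A gene was called when its adjusted p (limma, Benjamini-Hochberg over all probes tested) was at most 0.05, and the brighter probe over the 8 arrays stood for NOTCH1 and for NOTCH2, which for NOTCH2 is the probe of a short transcript described below. Values below are quantile-normalized log2 intensities, and differences are log2 fold changes. Between the control cells of the lines, 5 of the 10 genes were called higher in TT (JAG1, JAG2, DLL1, DLL3 and HEY1) and 1, NOTCH2, was called lower. Over all probes tested 12.9% were called higher in TT and 12.8% lower. Shares over all probes, here and below, include dim probes. Of 50584 probes 30459 were well above background on both arrays of a control group, beside 9 of the 10 genes. With dim probes left out, 14132 of 31059 probes were called in either direction. In 8 genes both TT_CTL arrays lay above both ORI_CTL arrays, against 27.8% of all probes, and in 1 they lay below, against 37.6%. The median difference of the 10 genes was 1.55, beside -0.05 over all probes. The calls rested on both TT control arrays. Without replicate 1 of TT_CTL 0 of the 10 genes were called, as were 0 probes in all, and without replicate 2 it was 2 genes and 1582 probes, compared with 13029 probes from all 4 arrays. Slide, scan day, labelled dose (5 and 20 nM) and RNA integrity number (9 and 8) differ between the control groups as well, so these are differences between 2 sets of arrays.

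On the Nthy-ori 3-1 arrays, pre-miR-375 against control gave 0 of the 10 genes called, and 0% of all probes. At an unadjusted p under 0.05 there were 2, NOTCH2 and HEY1, beside 14.3% of all probes. HEY1, DLL1 and HES1 were higher in both pairs, against 31.7% of all probes, and NOTCH2, JAG1 and DLL3 were lower in both, against 27.9%. The median over the 10 genes was 0.05, and over all probes 0.00. On the TT arrays, antagomiR-375 against control gave 0 of the 10 called and 0% of all probes, and 1 gene, DLL1, had an unadjusted p under 0.05, beside 9.73% of all probes. NOTCH2 (by the short-transcript probe, whereas the pairs of the full-length probe disagreed), JAG1, JAG2, DLL1 and HES1 were higher in both pairs, against 31.4% of all probes, and no member was lower in both, against 30.4%. The median was 0.20, beside 0.00 over all probes.

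**Figure D1:**
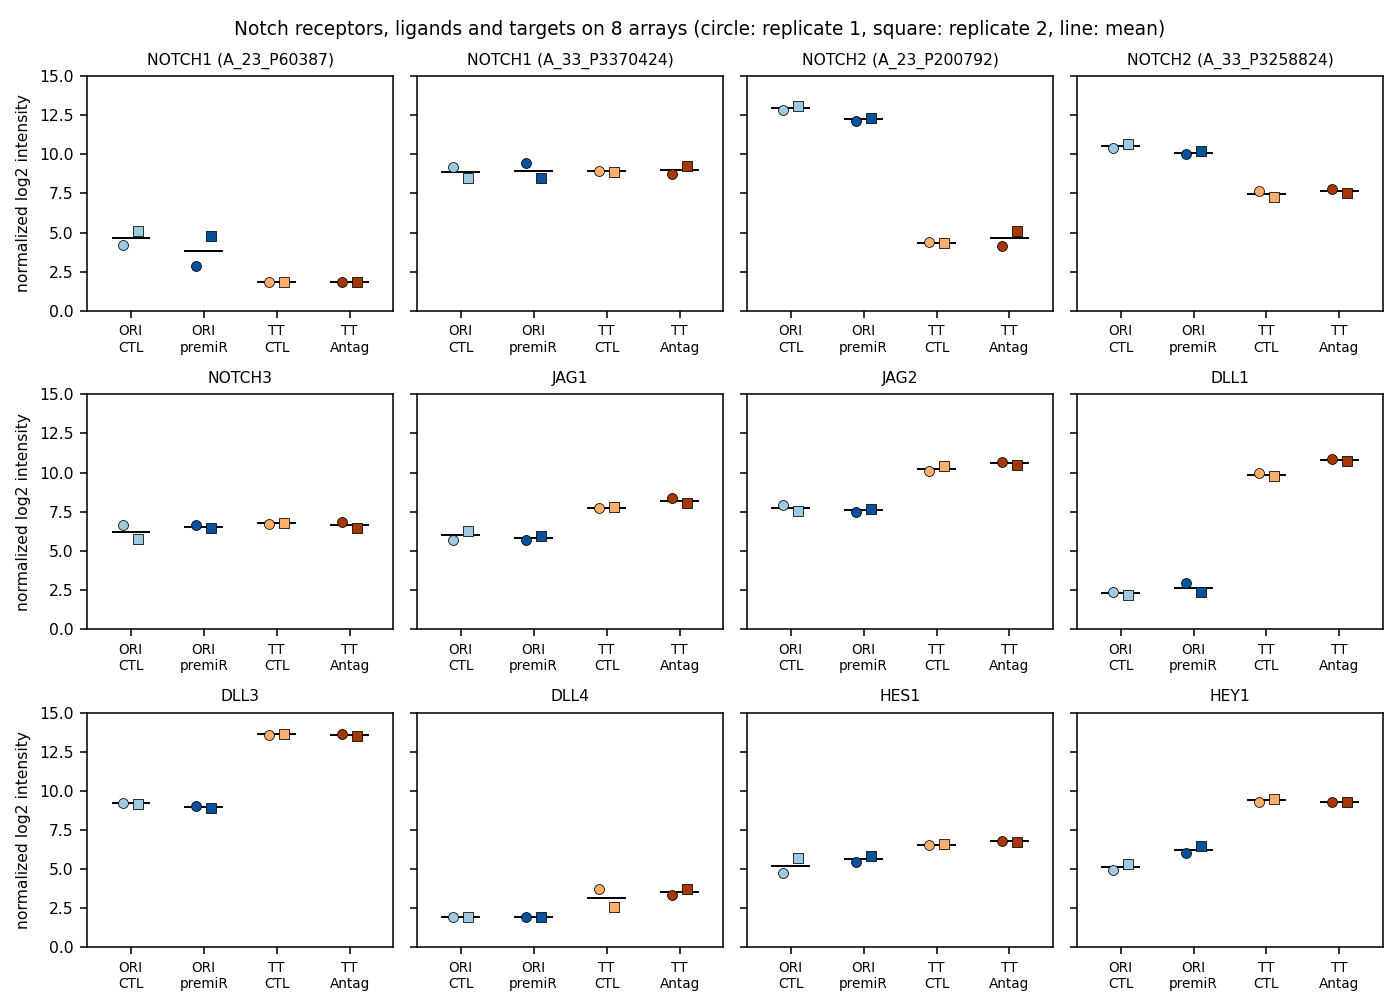
Normalized log2 intensity (vertical axis) of the 12 probes on the 8 arrays, by group (horizontal axis). Circles are replicate 1, squares replicate 2 and lines group means. NOTCH2 is highest on the Nthy-ori 3-1 arrays, DLL1, DLL3, JAG1, JAG2 and HEY1 on the TT arrays, and DLL4 lies near background throughout. Levels are comparable between arrays within a panel, not between panels.

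Of the receptors, NOTCH2 divided the lines most. Its probe for the full-length transcript (NM_024408; hg19 chr1:120454858-120454917, minus strand) read 12.85 and 13.10 on the ORI_CTL arrays and 4.39 and 4.33 on the TT_CTL arrays. All 4 Nthy-ori 3-1 arrays lay far above all 4 TT arrays, where the probe was still well above background. The difference of -8.61 ± 0.15 (SE) made NOTCH2 392-fold lower in TT (adjusted p = 0.00125). The other probe targets a short transcript (NM_001200001; chr1:120539807-120539866, minus strand) and read 10.39 and 10.64 in ORI_CTL but 7.62 and 7.28 in TT_CTL, a difference of -3.06 ± 0.20 (SE, adjusted p = 0.00609). Near-identical NOTCH2NL copies lie elsewhere on the same chromosome, and signal of this probe cannot be assigned to NOTCH2 alone. The brightest NOTCH2NL probe, looked up after these values were seen, was 7.97-fold lower in TT_CTL than in ORI_CTL (adjusted p = 0.0037).

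Both NOTCH2 probes were lower with pre-miR-375. The full-length probe read 12.14 and 12.33 on the pre-miR-375 arrays, below both control arrays, with differences of -0.72 and -0.76 in the 2 pairs. The mean of -0.74 ± 0.08 (SE) is 1.67-fold. It did not pass the test (adjusted p = 0.318), with an unadjusted p of 0.0120. With a normexp background in place of the scanner's own, the value was -0.76 and passed (adjusted p = 0.0401), and over the other settings tried the adjusted p ran from 0.0674 to 0.652. The short-transcript probe read 9.999 and 10.20, lower by 0.39 and 0.43 in the pairs (adjusted p = 0.332). NOTCH2NL was lower by 0.52 and 0.57.

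In TT cells the full-length NOTCH2 probe read 4.12 and 5.13 with antagomiR-375, lower than control in one pair and higher in the other (-0.28 and 0.80). The short-transcript probe read 7.77 and 7.52, higher than its paired control by 0.14 and 0.24, and the groups overlapped. Neither difference passed the test (adjusted p = 0.809 and 0.611).

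NOTCH1, the receptor most often studied in medullary carcinoma cells, gave different answers with its 2 probes, which lie on the same transcript (NM_017617). The single-spot probe (hg19 chr9:139390523-139390582, minus strand) read 9.21 and 8.51 in ORI_CTL and 8.95 and 8.87 in TT_CTL. The groups overlapped, and the difference was 0.05 with a 95% confidence interval from -0.86 to 0.95 (adjusted p = 0.937). The other probe (chr9:139389764-139389823) is printed on 10 spots and read 4.19 and 5.09 in ORI_CTL, against 1.86 and 1.83 in TT_CTL. It was above background on both replicate 2 arrays of Nthy-ori 3-1 cells and on no TT array, which makes NOTCH1 by this probe at least 2.06-fold lower in TT (adjusted p = 0.0213). An "at least" value sets the brighter group against the dimmest signal that still counted as well above background.

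Neither NOTCH1 probe separated the transfected cells from their controls. By the single-spot probe, pre-miR-375 arrays read 9.43 and 8.50, and antagomiR-375 arrays 8.71 and 9.25. Within each line the 2 slides differed by as much as the groups did, and the mean differences were 0.10 and 0.07 (adjusted p = 0.725 and 0.933). On the 10-spot probe the pre-miR-375 arrays read 2.87 and 4.81, with pair differences of -1.33 and -0.28 (adjusted p = 0.527). Its spots on replicate 1 of both Nthy-ori 3-1 groups held 1 bright spot marked as an outlier, which was left out.

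NOTCH3 (NM_000435; chr19:15270489-15270548, minus strand), a receptor best known in vascular smooth muscle, read 6.66 and 5.72 in ORI_CTL, 6.65 and 6.43 with pre-miR-375, 6.73 and 6.78 in TT_CTL, and 6.84 and 6.47 with antagomiR-375. Apart from one ORI_CTL array the 8 values lay close together. TT_CTL exceeded ORI_CTL by 0.57 ± 0.38 (SE, adjusted p = 0.407), and the pairs of each transfection went in opposite directions. Without the replicate 1 array of ORI_CTL the line difference was 1.03 and passed (adjusted p = 0.0484), so that one array decided this call.

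**Figure D2:**
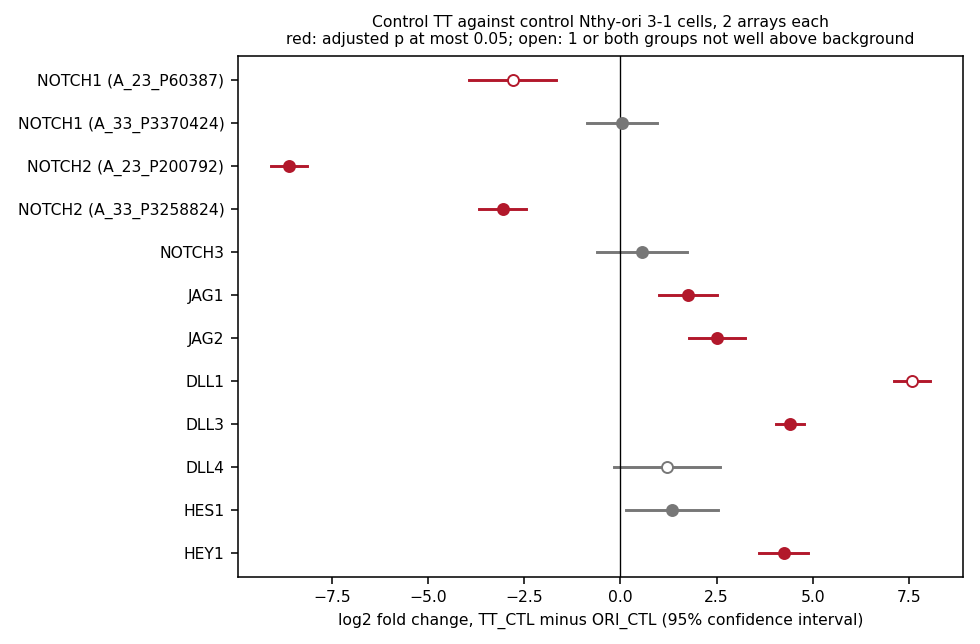
Log2 fold change of TT_CTL over ORI_CTL (horizontal axis) for each probe, with its 95% confidence interval from limma. NOTCH2 lies to the left and DLL1, DLL3, HEY1, JAG2 and JAG1 to the right of 0, whereas the intervals of NOTCH3, DLL4 and the single-spot NOTCH1 probe hold 0. For open points, where a group was not well above background on any array, the text gives a bound in place of the fold, except for DLL4, which was above background in neither group and has no fold.

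Of the 5 ligands, DLL1, DLL3, JAG1 and JAG2 were called higher in TT. DLL1 (NM_005618; chr6:170591642-170591701, minus strand) activates Notch on neighbouring cells and read 2.40 and 2.19 in ORI_CTL, not well above background, and 9.95 and 9.79 in TT_CTL. The gene was at least 45.6-fold higher in TT (adjusted p = 0.00129). With antagomiR-375 it read 10.89 and 10.72, above both TT control arrays, and the pairs gave 0.94 and 0.93. This near-equal difference of 0.94 ± 0.08 (SE), 1.92-fold, was the largest mean difference of any member in TT cells. Its unadjusted p was 0.00606 and its adjusted p 0.512. Over the other settings its adjusted p lay between 0.058 and 0.571, and the value between 0.93 and 0.96. The TT control RNA also had the lower integrity number, whose part was not tested. On the pre-miR-375 arrays of Nthy-ori 3-1 cells DLL1 read 2.95 and 2.36 and stayed below background, so no fold is given.

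DLL3 (NM_203486; chr19:39998477-39998536, plus strand), the intracellular Delta-like protein, read 9.23 and 9.18 in ORI_CTL and 13.59 and 13.64 in TT_CTL. The 4 arrays fell into 2 tight groups, 21.2-fold apart (4.40 ± 0.12 SE, adjusted p = 0.0016). With pre-miR-375 it read 9.04 and 8.92, below both controls, with pair differences of -0.20 and -0.26 (adjusted p = 0.444). With antagomiR-375 it read 13.65 and 13.48, which overlapped the controls (-0.04, 95% confidence interval -0.50 to 0.41).

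The Jagged ligands showed the same order with smaller steps. JAG2 (NM_002226; chr14:105608674-105608733, minus strand) read 7.93 and 7.52 in ORI_CTL and 10.07 and 10.41 in TT_CTL, a difference of 2.52 ± 0.24 (SE), or 5.72-fold (adjusted p = 0.0113). JAG1 (NM_000214; chr20:10619061-10619120, minus strand) read 5.72 and 6.28 in ORI_CTL and 7.74 and 7.78 in TT_CTL, higher by 1.76 ± 0.25 (SE), or 3.39-fold (adjusted p = 0.0242). With the replicate number as a block across the lines, neither passed (adjusted p = 0.0526 for JAG2 and 0.0595 for JAG1).

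With antagomiR-375 both Jagged genes stood above the controls on both arrays, without passing the test. JAG1 read 8.35 and 8.03, higher by 0.61 and 0.26 in the pairs (mean 0.43 ± 0.15 SE, adjusted p = 0.535). JAG2 read 10.65 and 10.51, higher by 0.58 and 0.10 (0.34 ± 0.18 SE, adjusted p = 0.642). Pre-miR-375 arrays read 5.68 and 5.96 for JAG1, lower by 0.04 and 0.32, and 7.51 and 7.66 for JAG2, whose pairs disagreed in direction. Both genes overlapped their controls there.

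DLL4 (NM_019074; chr15:41229655-41229714, plus strand), the Delta-like ligand of sprouting blood vessels, was not well above background on any of the 8 arrays. Its readings ran from 1.91 to 1.96 on Nthy-ori 3-1 arrays and from 2.59 to 3.73 on TT arrays, and no fold is given. The line difference did not pass (adjusted p = 0.167), whereas it did with each array set to its 75th percentile (adjusted p = 0.0418), between readings that are all below background. Among 5 endothelial markers, KDR and PECAM1 were called higher in TT_CTL and VWF lower. The summed signal of the 5 was 180 and 218 in ORI_CTL and 1320 and 1730 in TT_CTL. KDR led the TT_CTL sums with readings of 10.09 and 10.59, while the other markers read 6.49 or less there.

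Of the target genes, HEY1 differed most. This repressor (NM_001040708; chr8:80676312-80676371, minus strand) read 4.94 and 5.35 in ORI_CTL, and 9.30 and 9.47 in TT_CTL. TT was 18.9-fold higher (4.24 ± 0.21 SE, adjusted p = 0.00367). With pre-miR-375 it read 6.02 and 6.47, above both controls, and higher by 1.08 and 1.13 in the pairs. The mean difference, 2.15-fold with an SE of 0.08 on the log2 scale, was the largest among members well above background in Nthy-ori 3-1 cells. Its unadjusted p was 0.00547 and its adjusted p 0.318. The difference was 0.51 with a normexp background, which adds an offset of 50 to every signal before log2, and 0.53 in the deposited log2 values. Its adjusted p over all settings was between 0.0672 and 0.583. AntagomiR-375 arrays read 9.32 and 9.30, a difference of -0.07 with a 95% confidence interval from -0.50 to 0.35.

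HES1 (NM_005524; chr3:193854276-193854463, plus strand), the repressor whose promoter is printed above, has a probe of 60 bases that spans 188 bases of the genome and so crosses a splice junction. It read 4.75 and 5.704 in ORI_CTL and 6.53 and 6.61 in TT_CTL. TT was higher on both arrays, by 1.35 ± 0.39 (SE), and did not pass (adjusted p = 0.107). It passed when all 8 arrays were fitted (adjusted p = 0.0270), when dim probes were left out (0.0476), with a normexp background (0.63, adjusted p = 0.0447), and without the replicate 2 array of ORI_CTL (1.83, adjusted p = 0.0313). With pre-miR-375 HES1 read 5.43 and 5.87, higher by 0.68 and 0.16 in the pairs but overlapping the controls (adjusted p = 0.528). With antagomiR-375 it read 6.81 and 6.75, above both controls by 0.28 and 0.14 in the pairs (0.21 ± 0.10 SE, adjusted p = 0.606).

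**Figure D3:**
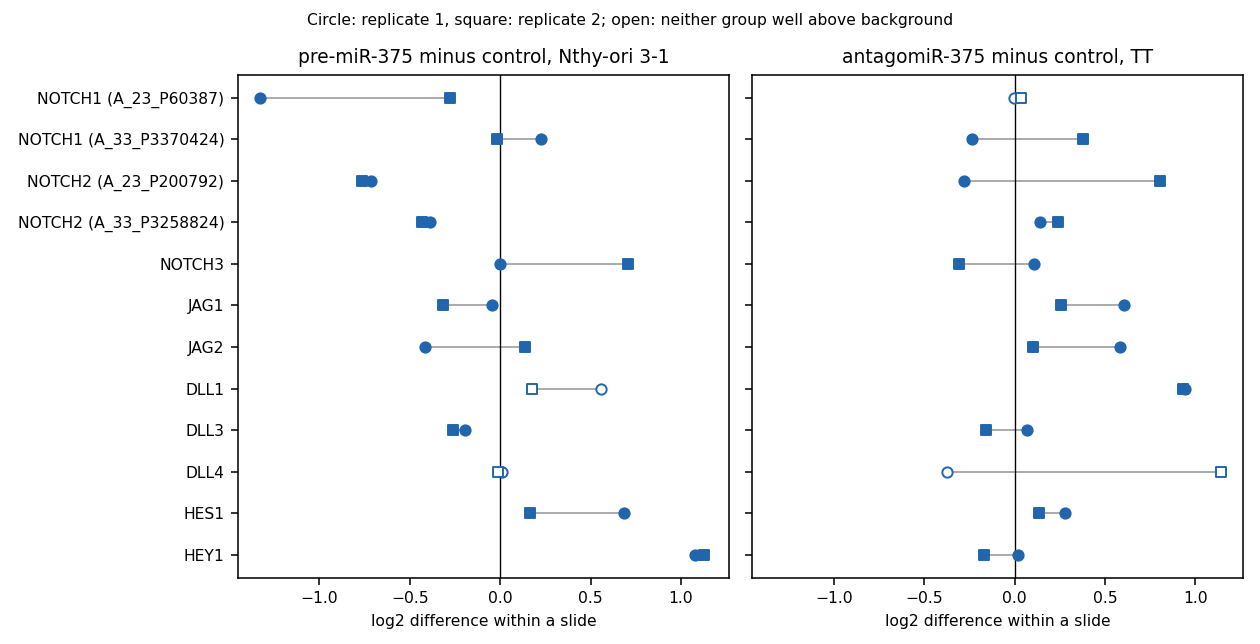
Difference between transfected and control array on the same slide (horizontal axis, log2) for each probe in Nthy-ori 3-1 cells (left) and TT cells (right). Circles are replicate 1, squares replicate 2, and open symbols mark probes above background in neither group. The 2 pairs nearly coincide for NOTCH2 (both probes) and HEY1 on the left and for DLL1 on the right, while those of DLL4 in TT cells and of NOTCH3 in Nthy-ori 3-1 cells lie far apart.

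Raising and blocking the miRNA can be read side by side, since the 2 comparisons share no array. JAG1 was lower in both pairs with pre-miR-375 (-0.04 and -0.32) and higher in both with antagomiR-375 (0.61 and 0.26). So was NOTCH2 by its short-transcript probe (-0.39 and -0.43, then 0.14 and 0.24), but not by its full-length probe, whose TT pairs disagreed. HES1 and DLL1 were higher in both pairs of both transfections, DLL1 below background in one of them. The remaining genes changed sign between pairs in at least one line. JAG1 overlapped its controls with pre-miR-375, as did the short-transcript NOTCH2 probe with antagomiR-375. Over all probes 31.7% were higher and 27.9% lower in both pairs with pre-miR-375, and 31.4% and 30.4% with antagomiR-375. The share of probes with a given direction in both transfections was not counted. None of the differences of these genes passed the adjusted test.

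The other genes of the pathway were taken as 57 genes in 6 lists, all with a probe on the array. With pre-miR-375, 0 of the 57 were called, 19 had an unadjusted p under 0.05, beside 14.3% of all probes, 23 were higher in both pairs and 16 lower in both, beside 31.7% and 27.9% of all probes, and the median was 0.06. All probes are a dimmer set, as 26318 of 50594 were well above background on both arrays of a group, beside 50 of the 57. With dim probes left out, 7413 of 27716 probes had an unadjusted p under 0.05 in Nthy-ori 3-1 cells. With a normexp background 9 of the 57 were called, and 4 in the deposited log2 values. With antagomiR-375, 0 were called, 5 had an unadjusted p under 0.05, beside 9.73% of all probes, and 27 were higher and 13 lower in both pairs, beside 31.4% and 30.4% (median 0.10). Between the control cells, 15 were called higher in TT and 16 lower, beside 12.9% and 12.8% of all probes (median -0.13). Without replicate 1 of TT_CTL 0 of the 57 were called, without replicate 2 it was 4, and with the replicate number as a block 17.

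The largest difference of the pathway with pre-miR-375 was in RBPJ, the DNA-binding protein on which transcription by Notch depends. RBPJ read 12.94 and 13.12 on the ORI_CTL arrays and 10.35 and 10.49 on the pre-miR-375 arrays. Both pre-miR-375 arrays lay far below both controls, and the pairs gave -2.59 and -2.63. The mean of -2.61 ± 0.08 (SE) is 6.10-fold. Its unadjusted p was 0.000984 and its adjusted p 0.318, the lowest reached by any probe in this line. It passed with a normexp background (adjusted p = 0.0234) and in the deposited log2 values (0.037), at -2.57 and -2.55. The other RBPJ probe gave -2.69. Processed pseudogenes of RBPJ exist, and whether the probes also take up their signal was not tested. In TT cells RBPJ read 12.44 and 12.56 in the controls and 12.77 and 12.54 with antagomiR-375, where the pairs gave 0.33 and -0.02, and the other probe 0.54 and 0.49.

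Of the 8 further genes in the list of HES and HEY relatives and NRARP, a Notch feedback inhibitor, 0 were called with pre-miR-375. In both pairs 3 were higher and 1 was lower, beside 31.7% and 27.9% of all probes, and the pairs of 4 disagreed. The higher ones were HES6 (0.76), HES4 (0.53) and NRARP (0.39), with adjusted p = 0.318, 0.340 and 0.343.

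In the remainder of the nuclear complex, of 17 genes with RBPJ, 3 were higher and 7 lower in both pairs with pre-miR-375, beside 31.7% and 27.9% of all probes. CTBP2, a corepressor, was lower by 1.02 and 0.98 on its brightest probe, and KAT2B, a histone acetyltransferase, was higher by 0.96 in the mean. RBPJL, the RBPJ relative of pancreas, stood out only by one array. It read 6.86 on replicate 1 of pre-miR-375 but 2.36 on replicate 2, against 2.67 and 2.03 in the controls, and it is named here because its value was seen. With antagomiR-375, 8 of 17 were higher and 3 lower in both pairs, beside 31.4% and 30.4% of all probes. CTBP2 was 0.49 higher and the coactivator CREBBP 0.42 higher, and the demethylase KDM5A was 0.40 lower (adjusted p = 0.512, 0.521 and 0.565). CTBP2 was thus lower with pre-miR-375 and higher with antagomiR-375, each in both pairs (adjusted p = 0.318 and 0.512), and it passed in Nthy-ori 3-1 cells with a normexp background (0.0291) and in the deposited log2 values (0.0478).

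The proteases that process the receptor showed 9 of 9 genes higher in both pairs with pre-miR-375, with a median of 0.38, beside 31.7% of all probes. FURIN, the convertase that makes the first cut, was highest (1.03 ± 0.09 SE, 2.05-fold), followed by NCSTN, a γ-secretase subunit (0.76 ± 0.09 SE), and ADAM10 (0.47 ± 0.09 SE). None passed the test (adjusted p = 0.318, 0.318 and 0.329), and NCSTN did with a normexp background (0.0444). With antagomiR-375, 4 of 9 were higher and 3 lower in both pairs, beside the same 31.4% and 30.4% of all probes. FURIN read 5.58 and 5.598 in TT_CTL and 6.47 and 6.33 with antagomiR-375, higher by 0.89 and 0.73, so that it was higher in both transfections. ADAM17 was higher by 0.45 and APH1A lower by 0.34.

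Among genes of receptor turnover, NUMB, which inhibits Notch and directs it to endocytosis, read 8.95 and 9.13 in ORI_CTL and 7.69 and 7.68 with pre-miR-375. The 2 groups were well apart, by 1.26 and 1.44 in the pairs (mean -1.35 ± 0.10 SE, 2.55-fold, adjusted p = 0.318), and NUMB passed with a normexp background (0.0289) and in the deposited log2 values (0.0444). ITCH, a ubiquitin ligase of Notch, was 0.67 lower, and DTX4, a Deltex ligase, was below background in the controls and at least 1.88-fold higher with pre-miR-375. With antagomiR-375 NUMB differed by 0.05. DTX1 was higher by 0.79 and 0.70 and FBXW7, which marks the intracellular domain for degradation, was lower by 0.61 and 0.52. DTX3L was higher by 2.15 and 0.70 in the pairs, which are far apart.

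LFNG, the Fringe glycosyltransferase that shifts the response of Notch from Jagged to Delta ligands, read 11.26 and 10.20 in ORI_CTL and 9.43 and 8.46 with pre-miR-375. Slides differed by about 1, but within each the gene was lower, by 1.83 and 1.74 (mean -1.79 ± 0.09 SE, 3.45-fold, adjusted p = 0.318). It passed with a normexp background (0.0234) and in the deposited log2 values (0.037). A second LFNG probe gave -0.17, and the probes do not tell the same story. NEURL1B, a ligase of the ligands, was higher by 0.85, and RFNG lower by 0.46. With antagomiR-375, MIB2 was higher by 0.39, MIB1 lower by 0.34 and NEURL1 lower by 0.29, each in both pairs. NOTCH4 and DLK2 moved by 0.06 or less with pre-miR-375. With antagomiR-375 CNTN1 and NOTCH4 were higher by 0.30 and 0.27, and DLK2 lower by 0.27, in both pairs.

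**Figure D4:**
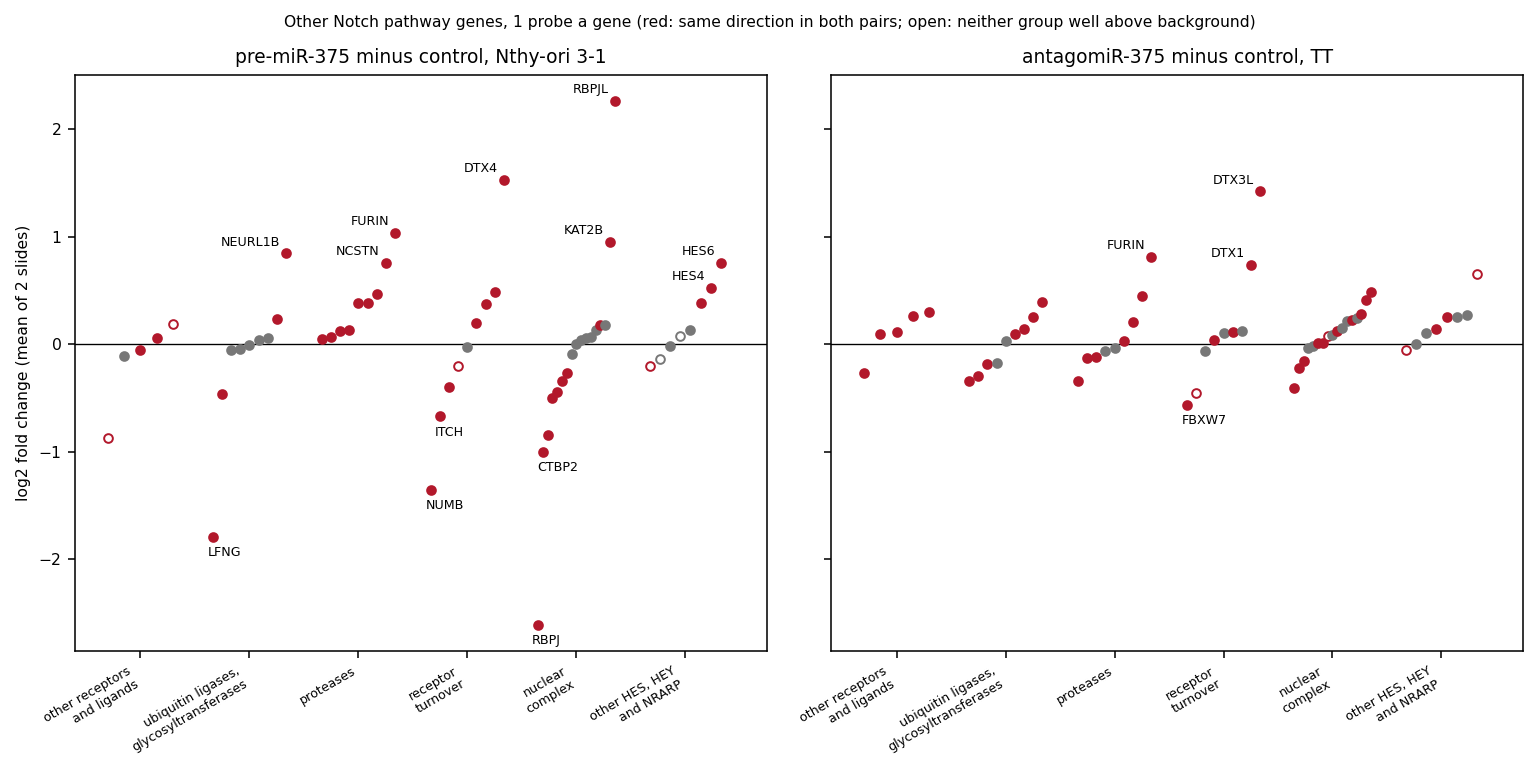
Log2 fold change (vertical axis, mean of 2 slides) of 57 other Notch pathway genes in 6 lists (horizontal axis), for Nthy-ori 3-1 cells given pre-miR-375 (left) and TT cells given antagomiR-375 (right). Red points have the same direction in both pairs and open points were above background in neither group. RBPJ (-2.61), LFNG (-1.79) and NUMB (-1.35) are lowest on the left, the proteases all lie above 0 there, and the RBPJL value (2.27) comes from 1 array.

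Between the control lines, 3 of the 5 other receptors and ligands were called higher in TT and 1 lower. The counts of this and the following lists stand beside 12.9% of all probes called higher and 12.8% called lower. CNTN1 and DNER, neural ligands of Notch, were at least 21.0-fold and at least 26.5-fold higher in TT_CTL (adjusted p = 0.00195 and 0.0346), and DLK2 was 13.5-fold lower (adjusted p = 0.00423). The Fringe gene MFNG was 39.3-fold higher in TT (5.30, adjusted p = 0.00143) and NEURL1B 6.24-fold, whereas LFNG, higher by 1.80, did not pass (adjusted p = 0.0711). Of 9 turnover genes 2 were called higher and 4 lower (12.9% and 12.8% of all probes), with DTX1 at least 13.1-fold and FBXW7 19.5-fold higher and DTX3L 3.95-fold lower.

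Of the 9 proteases 3 were called higher in TT and 1 lower, beside 12.9% and 12.8% of all probes. The γ-secretase subunits PSEN2 and APH1B were 6.44-fold and 3.31-fold higher, and ADAM17 was 2.06-fold lower. In the nuclear complex 2 of 17 were called higher and 6 lower. RBPJL was at least 7.45-fold higher in TT, the coactivator MAML2 at least 2.43-fold lower, and the corepressor SPEN 4.88-fold lower (adjusted p = 0.00729, 0.00293 and 0.0338). RBPJ itself was 0.53 lower in TT and did not pass (adjusted p = 0.0952). Of the 8 genes in the list of HES and HEY relatives and NRARP, 2 were called higher and 1 lower, and by arrays without overlap 2 were higher and 4 lower, beside 27.8% and 37.6% of all probes. HES6, found in neuroendocrine cells, was 13.4-fold higher in TT and HEYL 2.01-fold higher, while NRARP was 3.47-fold lower (adjusted p = 0.00677, 0.0435 and 0.0118). With the replicate number as a block SPEN, NRARP, HEYL, DNER and ADAM17 did not pass (adjusted p = 0.0989, 0.0502, 0.0724, 0.069 and 0.064), and HEYL passed neither with an intensity trend (0.0698) nor with the 75th percentile (0.0513). RBPJL did not pass when all 8 arrays were fitted (0.0649).

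The order of the 4 groups is given here by gene, and how many of all probes share each order was not counted. Between the control lines alone, 27.8% of all probes were higher in TT and 37.6% lower without overlap. For JAG1, JAG2 and DLL1 the antagomiR-375 arrays were highest, the TT controls next, and the Nthy-ori 3-1 groups lowest and overlapping with each other. HES1 followed this order, too. DLL3 and HEY1 were highest in both TT groups, which overlapped, and the Nthy-ori 3-1 groups followed without overlap, the controls above pre-miR-375 for DLL3 and below it for HEY1. For NOTCH2 the order was turned round, with ORI_CTL highest, pre-miR-375 next and the TT groups lowest and overlapping. For NOTCH3 and the single-spot NOTCH1 probe no neighbouring groups were separated. With 2 arrays per group, an exact permutation test cannot give a two-sided p below 0.333, so these orders describe the arrays. In these cultures, fewer cells with a transcript and less of it per cell cannot be told apart.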

How the data were processed

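Gene expression in 2 cell lines was read from 8 Agilent arrays of 1 colour, grouped by their labels. For each array the authors deposited Feature Extraction 10.10.1.1 output with processed intensity per spot, background subtracted and not normalized between arrays. A series table of log2 values that the authors deposited was used as an alternative. Its columns follow the log2 median signal (r 0.998 or more), and the exact steps are not given in the sources used here. Probe coordinates are those of the files (hg19).

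The processed intensity was put on the log2 scale, control and outlier spots were left out, repeat spots of a probe averaged, and all 8 arrays brought to the same quantiles (limma 3.58.1, R 4.3.3). The 4 arrays of a line went into their own lmFit and eBayes fit, with the replicate number as a block. The pairing comes from the slides, which same-numbered arrays of a line share, and the replicate difference of treated and control arrays correlated at r = 0.785 in Nthy-ori 3-1 and 0.329 in TT cells over probes above background. The control cells of the lines were compared without a block, since no slide holds both. With 1 residual degree of freedom in each transfection fit, the lowest adjusted p of any probe was 0.318 in Nthy-ori 3-1 and 0.512 in TT cells. A probe counted as above background when most of its spots carried the scanner's mark. The fits were tested on simulated data.

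All 10 members and their probes are named. Of the other pathway genes, up to 3 per list and comparison were named, those with the largest difference among genes above background on both arrays of a group and moved the same way in both pairs (between lines, without overlap). The members and lists were chosen with earlier results of these data known. A further marker gene is not reported here. Alternatives were the block, both lines together, an intensity trend, other scalings and background corrections, outlier spots kept, dim probes left out, and leaving out each array or pair. The normexp setting started from the mean spot signal and added an offset of 50 before log2. Its results thus differ from the main ones in the offset as well as in the background, and these parts were not separated. Sequences came from RefSeq and were read with pandas in Python. The number of arrays limits the precision.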

Additional observations from a re-analysis of the deposited data

How the results depend on the processing

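No member was called in either transfection under any alternative by the probe that stands for its gene. Of the other pathway genes, 0 were called with pre-miR-375 from the processed intensity, 9 with a normexp background and 4 in the deposited log2 values, where 1560 and 569 of all probes were called, compared with 0. Leaving out a pair left both counts at 0 in both lines. Between control lines 6 members were called, and 4 to 7 under other processing. Leaving out 1 array gave 0 to 7 members (0 without TT_CTL replicate 1) and 0 to 27 of the other pathway genes, compared with 31. With the replicate number as a block across lines, 4 members, 17 other pathway genes and 7259 probes were called, compared with 13029 probes without it. Without the replicate block in the transfection fits, 0 members and 0 pathway genes were called, as with it, and 4123 probes had an unadjusted p under 0.05 in Nthy-ori 3-1 cells, compared with 7257.

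Among members and named pathway genes, signs turned for the values given here, none of which had passed the test. With pre-miR-375 the leave-one-out values were -0.017 to 0.23 for the single-spot NOTCH1 probe, -0.00137 to 0.71 for NOTCH3, -0.41 to 0.14 for JAG2 and -0.012 to 0.011 for DLL4, and DLL4 was 0.026 with a normexp background and 0.017 in the deposited values, and NOTCH4 was 0.033 with the 75th percentile. With antagomiR-375 the 10-spot NOTCH1 probe was -0.015 with the 75th percentile and -0.030 in the deposited values, DLL3 was 0.037 with normexp and 0.033 in the deposited values, and DLL4 was -0.042 in the deposited values. Leave-one-out values there were -0.00464 to 0.035 for the 10-spot and -0.24 to 0.38 for the single-spot NOTCH1 probe, -0.28 to 0.80 for the full-length NOTCH2 probe, -0.31 to 0.11 for NOTCH3, -0.16 to 0.067 for DLL3, -0.37 to 1.14 for DLL4 and -0.17 to 0.018 for HEY1. Between lines the single-spot NOTCH1 probe was -0.30 to 0.39. The cause was not tested. Signal over background limited DLL4 everywhere and DLL1 in Nthy-ori 3-1 cells. It also limited the 10-spot NOTCH1 probe on all TT arrays and on the replicate 1 arrays of Nthy-ori 3-1 cells. Where 1 array of a group was left, it was assumed to vary like the others.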
